A study of Mus musculus with 6 samples.

Results

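The genes described here drive cell division: 22 genes of DNA replication and 29 genes of mitosis, matched by gene symbol to a list. All 51 were found among the 34099 genes of the count matrices, and each had at least 1 unique molecular identifier (UMI, a tag that marks a single captured RNA molecule) in every mouse. They were measured by 10x Genomics single-cell RNA sequencing of liver tumor tissue from 6 wild type mice, male C57BL/6J animals according to the methods of the study, at 1 library per mouse. The 3 control mice lived under standard housing, and the 3 stress mice went through chronic unpredictable mild stress. Every mouse, control mice included, carried an orthotopic liver tumor grown from H22, a murine hepatocellular carcinoma (HCC) line, so the tumor cells of both groups descend from the same line.

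A dividing cell copies its DNA in S phase and separates the copies in mitosis. Replication genes are switched on ahead of S phase, largely by E2F factors. They encode the Mcm helicase that opens the DNA, the enzymes that load it, the sliding clamp and fork proteins, the enzymes that make deoxynucleotides, and the cyclins E that start the phase. Mitosis genes are switched on later, in G2, by the MuvB complex with B-Myb and Foxm1, and they encode Cdk1 and its cyclins, the Aurora and Polo kinases, the kinetochore, the spindle motors, the anaphase-promoting complex (APC/C) machinery that ends mitosis, and the proteins that divide the cell body.

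The promoters of both gene groups were searched for the short motifs known for these phases, and example sequences are shown because the groups are reported apart throughout. RefSeq promoters (assembly GRCm38.p6, 250 bases before to 50 after each start) were found for 42 of the 51 genes, as 49 promoters. Only the 250 bases before the start were searched, so matches at or after the start are not counted. TTTGAA, known as the cell cycle homology region and bound by MuvB, was searched on both strands and lay in 10 of 25 mitosis promoters (40%), those of 9 genes, Ube2c, Ect2, Cdc20, Prc1, Mki67, Ccnb2, Cdk1, Top2a and Kif11, against 2 of 24 replication promoters (8.33%) and 15.99% of all 32851 promoters. CCAAT, the box bound by NF-Y, lay in 22 of 25 mitosis promoters (88%), 13 of 24 replication promoters (54.2%) and 33.8% of all. The E2F words TTTCCCGC, TTTCGCGC, TTTGCCGC and TTTGGCGC, searched on both strands, lay in 5 of 24 replication promoters (20.8%), those of Mcm5, Mcm6, Mcm7, Cdc6 and Uhrf1, in 1 of 25 mitosis promoters (4%), that of Cdk1, and in 1.86% of all. These matches are descriptions of letters and not of occupied sites. Printed are the 60 bases around the match in Kif11 (chr19:37376322-37376381, plus strand, match on the reverse strand, 19 bases before the start), Ccnb2 (chr9:70421689-70421748, minus strand, 167 bases before the start) and Mcm6 (chr1:128359782-128359841, minus strand, 110 bases before the start), 5′ to 3′ on the strand of the gene. Capitals mark TTTGAA in Kif11 and Ccnb2 and, in Mcm6, TTTGGCGC overlapping TTTCGCGC on the other strand. Mcm6 was chosen after its values were seen, as no replication gene passed the test in all tumor cells.
Kif11: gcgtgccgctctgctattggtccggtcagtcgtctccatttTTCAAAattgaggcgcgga
Ccnb2: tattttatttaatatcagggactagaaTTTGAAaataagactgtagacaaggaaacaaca
Mcm6: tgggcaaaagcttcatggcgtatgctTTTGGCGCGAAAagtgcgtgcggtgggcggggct

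The deposited table of annotated cells held 58794 of 61374 barcodes, 7239 to 11752 cells per mouse, with 58402 distinct barcode sequences, so some sequences occurred in more than 1 library. Control libraries held 184798748 to 187728350 UMIs and stress libraries 149558935 to 158405366, without overlap, with medians of 7166 to 20478 UMIs per cell. Counts were summed per mouse within each cell type or cluster and are given as CPM (UMIs per 1000000 UMIs of the same cells), so a sum cannot tell apart fewer dividing cells from less RNA per dividing cell. The 3 control libraries carry Cell Ranger 9.0.0 in their headers and the 3 stress libraries 7.1.0, so the software version and the group cannot be told apart in any comparison below. The authors labelled 29638 cells as tumor cells, 4962 to 7383 per control mouse and 3349 to 4338 per stress mouse. In them, 4 tumor markers (Epcam, Krt8, Krt18 and Cldn6) summed to 605 to 687 CPM in control mice and 705 to 897 in stress mice. Endothelial markers summed there to 16.5 to 19.8 in control and 22.5 to 31.0 in stress mice. Both lists were thus higher in every stress mouse, and the part of these lists, of library size and of the number of tumor cells in the results was not tested.

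In tumor cells, many mitosis genes were lower in stress mice, and no replication gene passed the test. Of the 29 mitosis genes, 19 fell and 0 rose in the edgeR quasi-likelihood test (adjusted p under 0.05 over 18856 genes), where 9.46% of all tested genes were called lower and 12% higher. All 29 had a negative log2 fold change, from -1.09 to -0.12 with a median of -0.61, beside a median of -0.01 over all genes. In 14 of them every stress mouse lay below every control mouse, as in 10.1% of all genes. Of the 22 replication genes, 0 were called by edgeR and 0 by DESeq2 (which called 26.5% of all genes). In edgeR, 4 had an unadjusted p under 0.05 (1 higher and 3 lower, beside 37.4% of all genes). The log2 fold changes of the 22 ran from -0.48 to 0.40 with a median of -0.28. Negative values were found in 5 of 7 helicase, 5 of 6 fork and 4 of 5 nucleotide genes, and in 1 of 2 licensing genes and 1 of 2 cyclins E. The difference between the 2 gene groups was not itself tested. With the replicate number added to the test as a block, some replication genes passed, most of them lower.

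**Figure D1:**
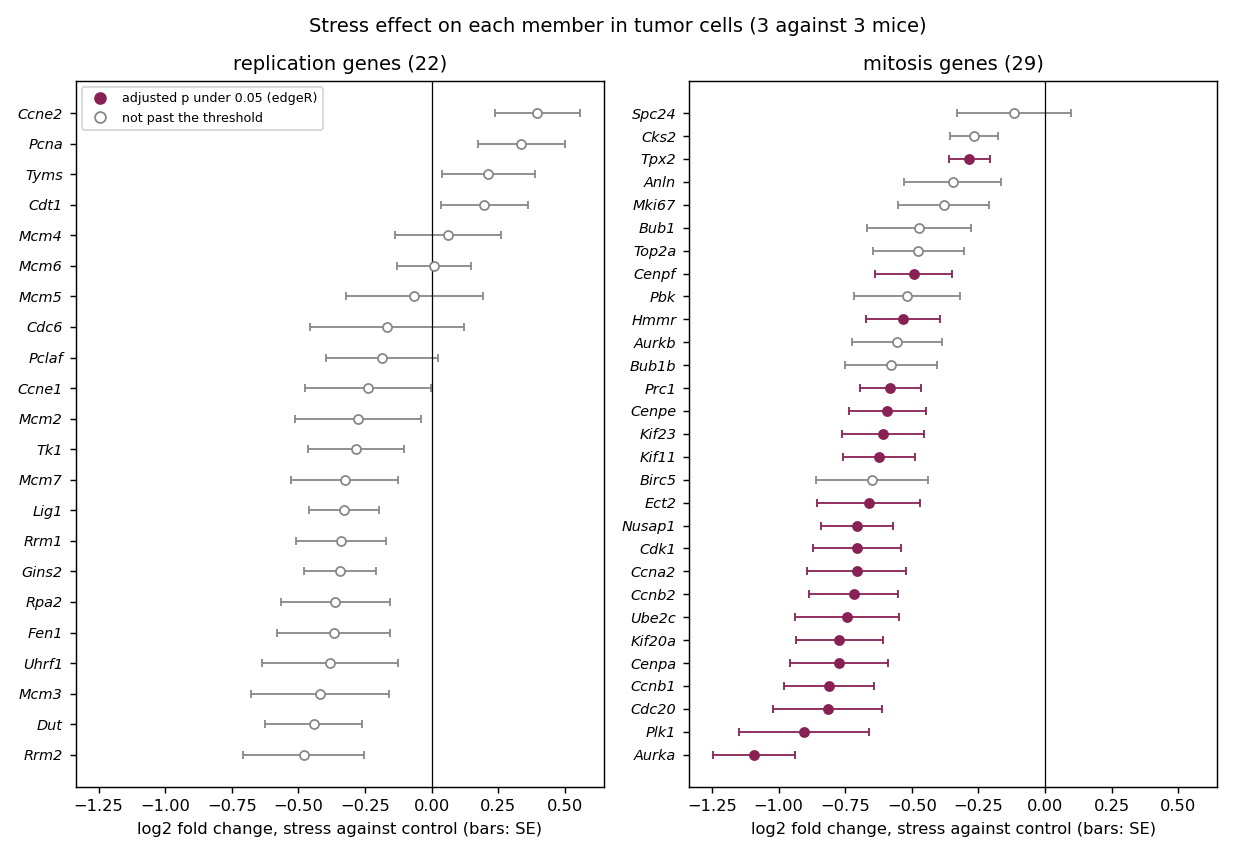
Log2 fold change (stress against control) of each replication and mitosis gene in tumor cells, with bars of 1 standard error and filled points for genes past the edgeR threshold. The mitosis genes all lie left of 0, from -1.09 to -0.12, while the replication genes lie on both sides, from -0.48 to 0.40.

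Among the mitotic kinases, Aurka, which encodes the kinase that matures centrosomes and builds the spindle, measured 41.6, 59.9 and 38.9 CPM in control mice 1 to 3 and 21.6, 27.4 and 23.6 in stress mice 1 to 3. The groups did not overlap, and its log2 fold change of -1.09 (SE 0.15, edgeR adjusted p = 0.00603) was the largest fall of the 51 genes. Plk1, the Polo-like kinase of mitotic entry and exit, measured 16.1, 22.6 and 15.9 in control and 7.91, 15.6 and 8.87 in stress mice, with stress mouse 2 just under the lowest control mouse (log2 -0.90, SE 0.24, edgeR adjusted p = 0.0366). Aurkb, the kinase of the chromosomal passenger complex, missed the threshold at log2 -0.56 (edgeR adjusted p = 0.0519), as did its partner Birc5 (survivin) at -0.65 (0.0625) and the mitotic kinase Pbk at -0.52 (0.0988).

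Of the cyclins and their kinase, 4 of 5 fell. Ccnb1, cyclin B1, the partner of Cdk1 at mitotic entry, measured 69.9, 80.7 and 72.0 CPM in control and 42.3, 61.4 and 36.7 in stress mice, without overlap (log2 -0.81, SE 0.17, edgeR adjusted p = 0.0168). Cdk1, the kinase itself, measured 171, 225 and 171 in control and 123, 158 and 103 in stress mice, again without overlap (log2 -0.71, SE 0.16, edgeR adjusted p = 0.0242). Ccnb2 fell by 0.72 (edgeR adjusted p = 0.0239) without overlap. Ccna2, the cyclin of late S phase and G2, fell by 0.71 (edgeR adjusted p = 0.0339) with overlapping groups, and Cks2, a small CDK-binding protein, did not pass (log2 -0.27, edgeR adjusted p = 0.07).

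Both APC/C genes fell. Cdc20, the activator that starts anaphase, measured 55.8, 60.1 and 52.8 CPM in control and 30.4, 49.7 and 26.1 in stress mice, and the groups did not overlap (log2 -0.82, SE 0.20, edgeR adjusted p = 0.03). Ube2c, the ubiquitin-conjugating enzyme of the APC/C, measured 244, 354 and 245 in control and 184, 228 and 143 in stress mice, likewise apart (log2 -0.74, edgeR adjusted p = 0.0334). At the kinetochore, 3 of 6 genes fell. Cenpa, the histone variant that marks centromeres, measured 157, 220 and 169 in control and 98.8, 155 and 99.3 in stress mice, with stress mouse 2 close under control mouse 1 (log2 -0.77, SE 0.18, edgeR adjusted p = 0.0254). The kinetochore motor Cenpe (log2 -0.59, edgeR adjusted p = 0.0276) and Cenpf (-0.49, 0.047) also passed. The spindle checkpoint genes Bub1b (-0.58, 0.0504) and Bub1 (-0.47, 0.117) did not pass, and Spc24, a subunit of the Ndc80 complex, had the value nearest 0 of the mitosis genes (-0.12, 0.726).

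The spindle and cytokinesis genes moved in the same direction. All 4 spindle genes fell: the bipolar spindle motor Kif11 (log2 -0.62, edgeR adjusted p = 0.0196), the microtubule binder Nusap1 (-0.70, 0.0131), Hmmr (-0.53, 0.0335) and Tpx2, which activates Aurora A (-0.28, 0.0372). Of the 5 cytokinesis genes, 4 fell. Kif20a, a motor of the central spindle, measured 25.1, 29.2 and 23.9 CPM in control and 13.0, 22.1 and 15.8 in stress mice, without overlap (log2 -0.77, SE 0.16, edgeR adjusted p = 0.0184). Prc1, which bundles midzone microtubules (-0.58, 0.0146), the centralspindlin motor Kif23 (-0.61, 0.0301) and Ect2 (-0.66, 0.0466) passed as well, and the scaffold Anln did not (-0.35, 0.204).

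The proliferation markers Mki67 and Top2a did not pass the test in tumor cells. Mki67, which encodes the antigen Ki-67, measured 43.1, 55.2 and 44.3 CPM in control and 33.9, 53.4 and 34.0 in stress mice (log2 -0.38, SE 0.17, edgeR adjusted p = 0.147). Top2a, the topoisomerase that untangles sister chromosomes, measured 233, 337 and 243 in control and 177, 271 and 200 in stress mice (log2 -0.47, SE 0.17, edgeR adjusted p = 0.0843). Stress mouse 2 lay within the control range for both.

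Among replication genes, the helicase subunit Mcm2 measured 32.5, 51.2 and 36.7 CPM in control and 26.3, 51.6 and 32.4 in stress mice (log2 -0.28, SE 0.24, edgeR adjusted p = 0.431). The ranges overlapped, and mouse 2 of each group was highest. The other helicase genes ran from -0.42 (Mcm3, edgeR adjusted p = 0.279) to 0.06 (Mcm4). Rrm2, the regulated subunit of ribonucleotide reductase, measured 82.0, 119 and 92.8 in control and 65.4, 110 and 57.9 in stress mice (log2 -0.48, SE 0.23, edgeR adjusted p = 0.167), and Dut, which removes dUTP, gave -0.44 (0.117). Pcna, the sliding clamp, measured 78.8, 125 and 91.9 in control and 117, 162 and 134 in stress mice (log2 0.34, SE 0.16, edgeR adjusted p = 0.176), with stress mouse 1 below the highest control mouse. Ccne2, cyclin E2, measured 12.5, 18.1 and 12.7 in control and 18.3, 25.3 and 19.5 in stress mice (log2 0.40, SE 0.16, edgeR adjusted p = 0.114). With a mouse left out, log2 fold changes ran from -0.56 to -0.096 for Mcm2, -0.74 to -0.22 for Mcm3, -0.76 to -0.30 for Rrm2 and 0.20 to 0.51 for Pcna, and Rrm2 passed without stress mouse 2 and Pcna without control mouse 2. Ccne2 was the only replication gene in which every stress mouse lay above every control mouse, as in 28.2% of all tested genes.

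Summed over genes, all replication genes together reached 1373, 1741 and 1478 CPM in control and 1269, 1871 and 1209 in stress mice (1531 ± 190 against 1450 ± 366, SD, n = 3 each). All mitosis genes together reached 2523, 3275 and 2554 in control and 1883, 2601 and 1794 in stress mice (2784 ± 425 against 2093 ± 442). In CPM, which lack the scaling used in the edgeR test, both sums overlapped between groups. Mouse 2 of each group was the highest of its group for both. Mitosis UMIs per replication UMI, a ratio within each mouse, were 1.84, 1.88 and 1.73 in control and 1.48, 1.39 and 1.48 in stress mice and did not overlap. After each cell was thinned to 1000 UMIs, 35.5 ± 8.96% of control and 28.6 ± 8.25% of stress tumor cells held at least 3 mitosis UMIs, again with overlap.

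**Figure D2:**
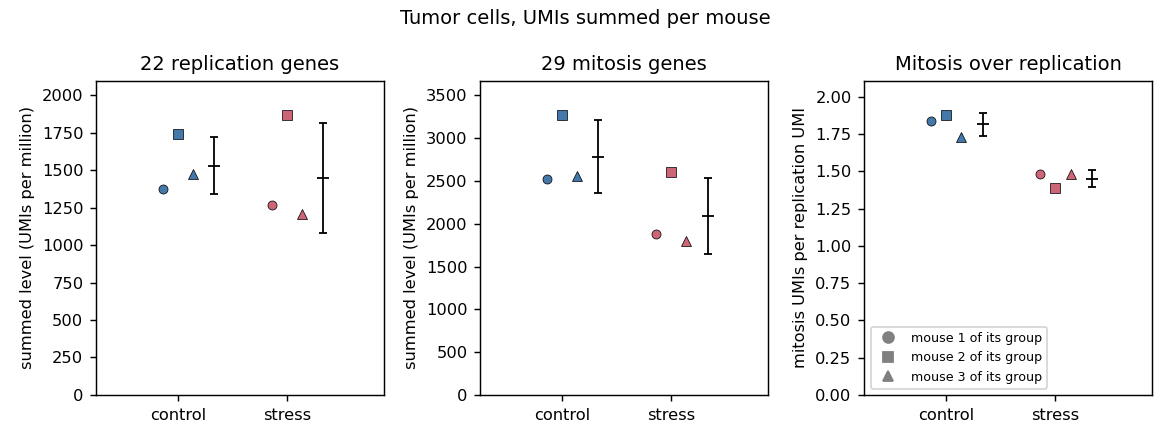
Summed replication and mitosis CPM (y axes: UMIs per 1000000 UMIs) and mitosis UMIs per replication UMI in tumor cells, each point a mouse, with the mean and SD of each group beside the points. The 3 stress mice lie at 1.39 to 1.48 in the ratio and the 3 control mice at 1.73 to 1.88, while both sums overlap.

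The number of mitosis genes that passed changed when single mice were left out, as did the calls over all genes. The count of 19 became 8 when control mouse 1 was left out (3.13% of all genes were then called lower), 18 for control mouse 2 (14.6%) and 2 for control mouse 3 (2.35%). It became 4 when stress mouse 1 was left out (4.66%), 20 for stress mouse 2 (4.13%) and 6 for stress mouse 3 (4.25%). With cells thinned to 5000 UMIs, 3 genes passed (Aurka, Kif20a and Nusap1, beside 3.97% of all genes). Aurka was called lower in every one of these alternatives. With a mouse left out, log2 fold changes ran from -1.01 to -0.65 for Ccnb1, from -0.84 to -0.56 for Cdk1 and from -0.76 to -0.50 for Kif11.

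Most of these transcripts came from a few tumor clusters, as numbered by the authors. The methods of the study do not list the genes used for clustering, which may include the 51. Clusters 1 and 4 held 34.2 to 38.7% and 23.8 to 31.4% of the mitosis UMIs of tumor cells, and 35.1 to 39.7% and 22.9 to 29.8% of the replication UMIs. In thinned cells, at least 3 mitosis UMIs were found in 67.3% of cluster 1 (exact 95% interval 66.0 to 68.6), 72.2% of cluster 4 (70.7 to 73.6) and 74.8% of cluster 14 (72.7 to 76.8), against 40.9% in cluster 17, 26.9% in cluster 9, 14.1% in cluster 21 and 6.54 to 9.59% in clusters 3, 5, 6 and 7. These intervals cover counting error only. Cluster 14 held 7.33, 7.49 and 7.30% of the tumor cells of control mice and 4.03, 3.75 and 3.76% of those of stress mice, so the tumor cells of each group were made up of different shares of this mitosis-rich cluster. As the clustering may have used the 51 genes themselves, these shares are a description, and their part in the fall over all tumor cells was not tested.

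Within the cycling clusters, summed mitosis levels were lower in every stress mouse of clusters 1 and 4, while replication levels overlapped. In cluster 14 the mitosis sums overlapped between groups, with stress mouse 2 above control mice 1 and 3. In cluster 4, mitosis genes summed to 5090, 5073 and 4789 CPM in control and 3870.3, 4051 and 3571 in stress mice (4984 ± 169 against 3831 ± 243), and replication genes to 2229, 2441 and 2342 against 2386, 2773 and 2319. In cluster 1, mitosis genes summed to 4656, 4705 and 4328 in control and 3819, 3823 and 3492 in stress mice, and replication genes to 2563, 2566 and 2629 against 2488, 2859 and 2418. The mitosis sums did not overlap in either cluster and the replication sums overlapped in both. The ratio of mitosis to replication UMIs was 2.04 to 2.28 in control and 1.46 to 1.62 in stress mice in cluster 4, 1.65 to 1.83 and 1.34 to 1.54 in cluster 1, and 2.38 to 2.98 and 2.10 to 2.27 in cluster 14. In clusters 3, 5, 6, 7, 9, 17 and 21 the ratio overlapped between groups. Tumor and endothelial marker sums overlapped between groups within clusters 1 and 4. Stellate markers in cluster 4 stood at 0.536 to 0.905 CPM in control and 0.911 to 1.94 in stress mice, without overlap, and in cluster 14 tumor markers stood at 426 to 455.0 CPM in control and 456 to 531 in stress mice, without overlap.

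**Figure D3:**
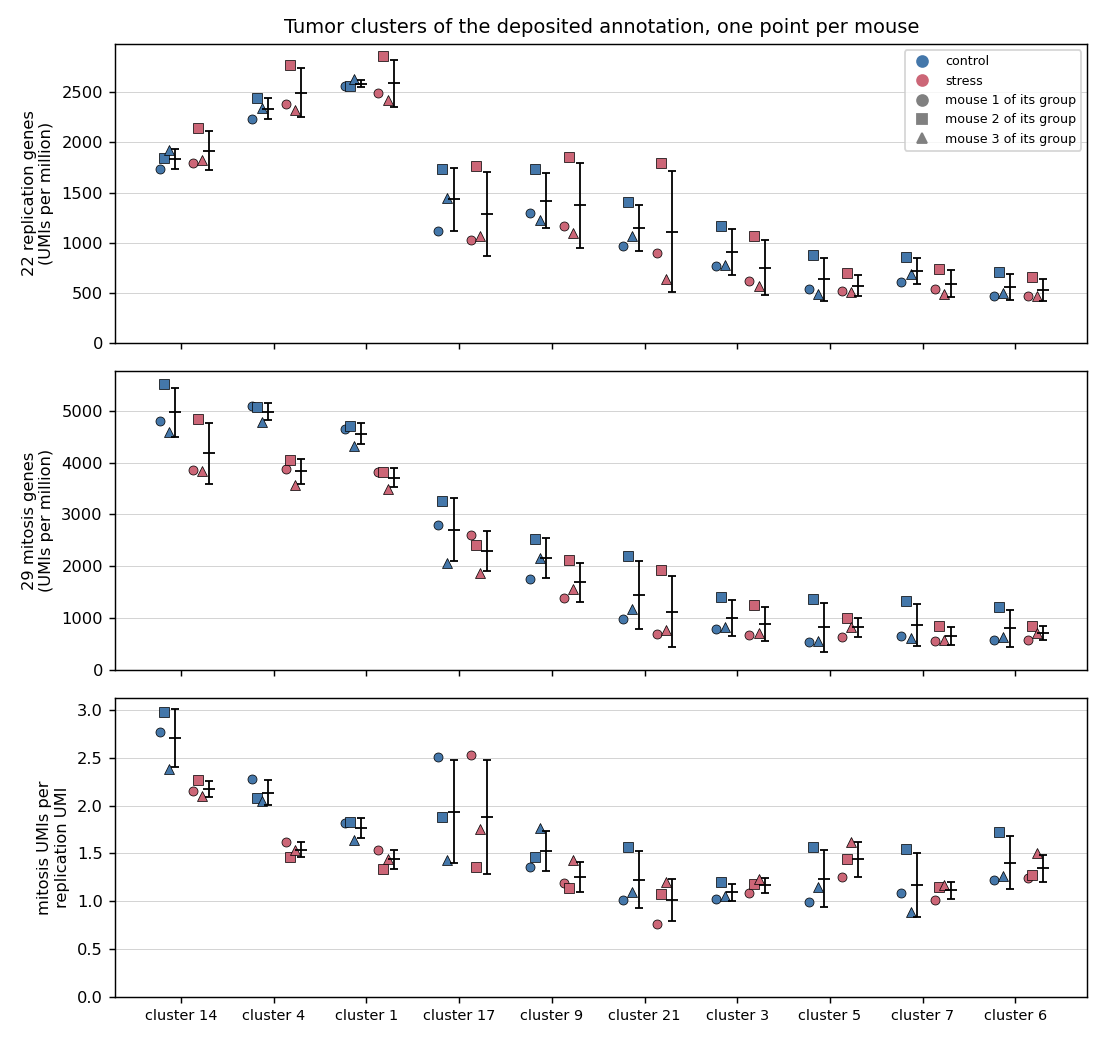
Replication CPM, mitosis CPM and mitosis UMIs per replication UMI in each tumor cluster, each point a mouse, with the mean and SD of each group. In clusters 1, 4 and 14 the ratio of every stress mouse lies below that of every control mouse, as in cluster 4 with 1.46 to 1.62 against 2.04 to 2.28.

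Tested within clusters, mitosis genes fell, while the few replication genes called lay near the share of all genes called. In cluster 4, 16 mitosis genes fell (6.84% of 14542 genes were called lower) and 4 replication genes rose (7.17% were called higher). In cluster 1, 12 mitosis genes fell (7.41% of 14866 genes) and 3 replication genes rose (7.15%). In cluster 14, tested after the data were seen, 8 mitosis genes fell (3.34% of 12442 genes) and Ccne2 rose (3.38%). Counted either way, the replication calls of the 3 clusters lay near the share of all genes called. That share was 2037 of 14542 genes in cluster 4, 2165 of 14866 in cluster 1 and 835 of 12442 in cluster 14. Aurka, Ccna2, Ccnb1, Cdc20 and Cenpa fell in all 3 clusters and in tumor cells as a whole. Aurka measured 78.2, 87.2 and 69.6 CPM in control and 35.6, 39.1 and 36.7 in stress mice of cluster 4 (log2 -1.11, SE 0.10, edgeR adjusted p = 0.00108), and the difference in cluster 1 was of like size (log2 -1.04, SE 0.12, edgeR adjusted p = 0.00287). Mki67 did not pass in either, at log2 -0.12 (edgeR adjusted p = 0.395) in cluster 4 and -0.07 (0.547) in cluster 1.

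The few replication genes called higher were Pcna, Ccne2 and Tyms in clusters 1 and 4 and Cdt1 in cluster 4. As their number lay near the share of all genes called either way, the values describe single genes only. Pcna measured 118, 160 and 133 CPM in control and 199, 221 and 221 in stress mice of cluster 4 (log2 0.61, SE 0.11, edgeR adjusted p = 0.0114), and 140, 162 and 158 against 212, 231 and 233 in cluster 1 (log2 0.53, SE 0.08, edgeR adjusted p = 0.00708). Every stress mouse lay above every control mouse in both clusters. The same held for Pcna in monocytes and in dendritic cluster 20 (50.9 to 87.0 against 104 to 138 CPM). It also held in neutrophils and HSCs, which had few cells and were not tested. In tumor cells as a whole, the groups overlapped for Pcna. Ccne2 measured 22.3, 24.2 and 20.7 in control and 34.3, 38.5 and 37.2 in stress mice of cluster 1 (log2 0.68, SE 0.09, edgeR adjusted p = 0.00385) and gave log2 0.67 in cluster 4 (edgeR adjusted p = 0.0166). Tyms, thymidylate synthase, gave 0.42 in cluster 1 (0.0346) and 0.54 in cluster 4 (0.0135). Cdt1, which loads the Mcm helicase onto origins and is destroyed once S phase begins, measured 40.7, 46.8 and 44.6 in control and 58.4, 67.8 and 66.6 in stress mice of cluster 4 (log2 0.51, SE 0.09, edgeR adjusted p = 0.00932) and did not pass in cluster 1 (log2 0.23, edgeR adjusted p = 0.199).

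Other cell cycle genes were taken from a list of 101. Of 100 tested in tumor cells, 21 fell and 2 rose, beside 9.46% lower and 12% higher over all genes, with a median log2 fold change of -0.22 (-0.01 over all genes). By role, 5 of 8 further APC/C genes fell, 4 of 13 checkpoint genes, 3 of 15 kinetochore and condensin genes and 1 of 15 genes of origins and helicase loading, while of 16 polymerase and clamp loader genes 2 fell and 2 rose. Incenp, the scaffold of the chromosomal passenger complex, gave log2 -0.91 (edgeR adjusted p = 0.0162), the CDK4/6 inhibitor gene Cdkn2d -0.90 (0.00868), cyclin D3 gene Ccnd3 -0.89 (0.0294) and the Cdk1-activating phosphatase gene Cdc25b -0.86 (0.00704). Of the factors that switch these genes on, Foxm1 (-0.71, SE 0.19, 0.0368) and E2f1 (-0.67, SE 0.19, 0.0452) fell, both with overlapping groups. The B-Myb gene Mybl2 did not pass (-0.25, 0.464), and neither did Cdkn1a (-0.20, 0.171) or Ccnd1 (-0.40, 0.287, and -0.054 without control mouse 2). Pole, the leading-strand polymerase, rose from 12.8, 16.6 and 13.7 CPM in control to 23.6, 29.1 and 27.5 in stress mice (log2 0.75, SE 0.11, edgeR adjusted p = 0.00638), and the primase gene Prim1 rose by 0.44 (edgeR adjusted p = 0.0249). For both, every stress mouse lay above every control mouse.

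Across the cell types named by the authors, tumor cells, NK/T cells and the cells labelled M-MDSCs held the most transcripts of these genes. Mean mitosis levels over the 6 mice were 2453 ± 673 CPM in M-MDSCs, 2438 ± 542 in tumor cells, 1912 ± 589 in NK/T cells, 1801 ± 553 in dendritic cells and 1713 ± 616 in neutrophils, then 1038 in B cells, 896 in inflammatory myeloid cells, 808 in endothelial cells (ECs), 627 ± 613 in hepatic stellate cells (HSCs) and 614 in monocytes. Control mouse 2 had 6 HSCs, 66.7% of them called doublets. Mean replication levels were highest in NK/T cells (1780 ± 433), followed by M-MDSCs (1575 ± 430), tumor cells (1490 ± 265) and dendritic cells (1230.0 ± 234), and lowest in inflammatory myeloid cells (439 ± 168). In neither order did all 6 mice of a cell type lie above all 6 mice of the next. At 1000 UMIs per cell, the share with at least 3 mitosis UMIs averaged 32.0% in tumor cells, 31.0% in M-MDSCs, 16.3% in NK/T cells, 2.68% in ECs and 2.35% in monocytes, the lowest of the cell types. Cells under 1000 UMIs were left out, among them 324 tumor cells, 610 ECs and 984 inflammatory myeloid cells. The labels were set beside marker lists. The M-MDSCs held monocyte and macrophage markers at 12.1 to 116 CPM, against 4688 to 6747 in monocytes, neutrophil markers (among them S100a8 and S100a9) at 832 to 4177, against 87.2 to 599 in monocytes, and tumor markers at 492 to 790, with 63.1% of cells called doublets. Inflammatory myeloid cells held neutrophil markers at 16840.3 to 35713 CPM.

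**Figure D4:**
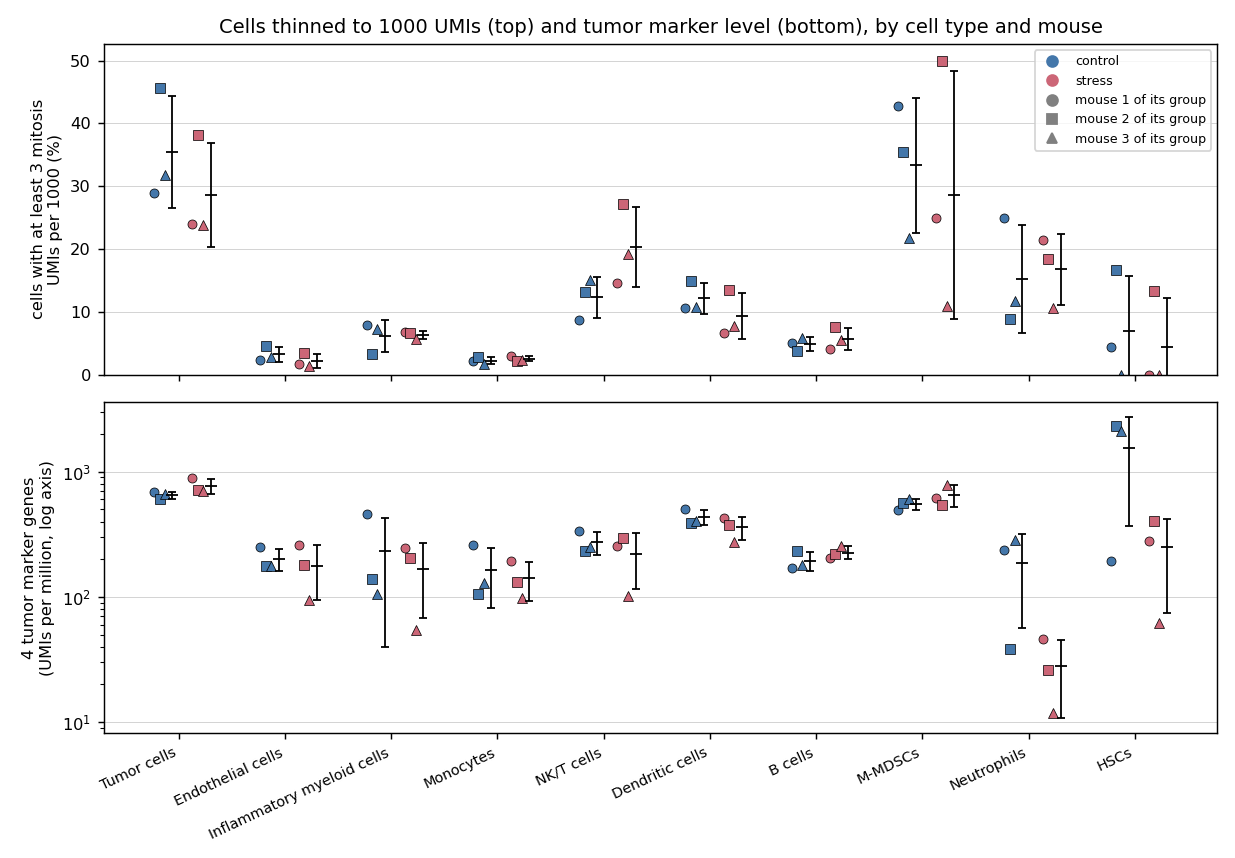
Share of cells with at least 3 mitosis UMIs at 1000 UMIs per cell (top) and summed CPM of the 4 tumor markers (bottom, log axis) by cell type, each point a mouse, with the mean and SD of each group. Tumor cells and M-MDSCs are highest in the share, at means of 32.0% and 31.0% over all mice, and tumor markers in M-MDSCs (492 to 790 CPM) reach the level of tumor cells (605 to 897).

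The genes did not keep the same proportions from cell type to cell type. Mean levels in NK/T cells exceeded those in tumor cells for Nusap1 (48.9 against 13.2 CPM), Kif11 (45.8 against 21.5), Mki67 (82.0 against 44.0) and the single-strand binding protein gene Rpa2 (59.3 against 21.1), while Anln was lower in NK/T cells (36.4 against 117). Each pair compares 1 gene between cells and not genes with each other. In inflammatory myeloid cells, Cks2 alone gave 326, 286 and 491 of the 964, 869 and 870 mitosis CPM in control and 421, 383 and 482 of 988, 1011 and 676 in stress mice. Without Cks2, the share of these cells with at least 3 mitosis UMIs dropped from 6.24% to 0.798%.

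**Figure D5:**
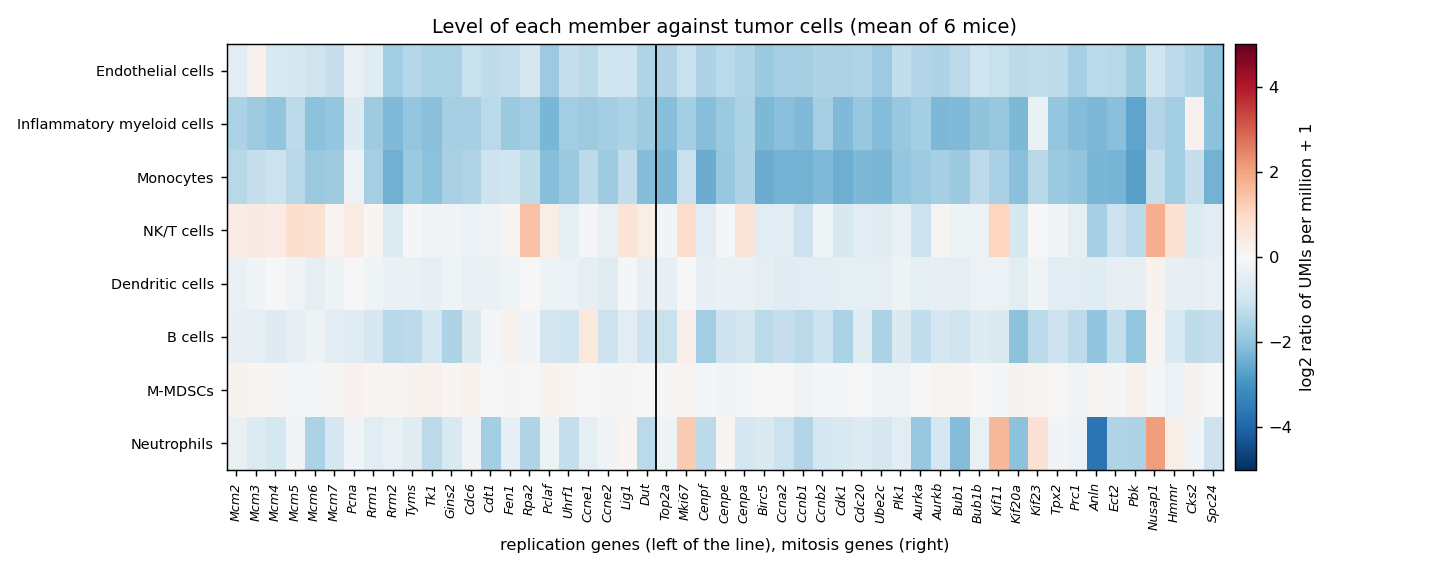
Log2 ratio of the mean level (CPM plus 1, 6 mice) of each replication and mitosis gene in each other cell type to that in tumor cells, red where it is higher and blue where it is lower than in tumor cells. In NK/T cells Nusap1 is red (48.9 against 13.2 CPM) and Anln blue (36.4 against 117), and M-MDSCs stay close to tumor cells throughout.

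In ECs, mitosis genes had lower values in stress mice, but none passed. edgeR called 0 of the 51 genes, where 0.213% of 14090 genes were called, with 17 mitosis genes lower and 1 replication gene higher at an unadjusted p under 0.05 (15.6% of all genes reached it), and DESeq2 called 4 mitosis genes lower (1.54% of all). Aurka measured 14.5, 22.6 and 14.8 CPM in control and 6.40, 10.2 and 5.24 in stress mice (log2 -1.28, edgeR adjusted p = 0.133). In 14 mitosis genes the groups did not overlap, as in 10.2% of all genes in this direction. Cluster 16, 5.5 to 15.7% of ECs, held 49.5 to 86.4% of their mitosis UMIs, carried tumor markers at 411 to 660 CPM and had 47.3% of its cells called doublets. Without it, a choice made after the data were seen, the median log2 fold change of the mitosis genes went from -0.69 to 0.02, edgeR called 0 of the 51 genes (0.178% of all), 1 had an unadjusted p under 0.05 (12.5% of all genes reached it), and in 0 of the 51 genes the groups were apart (11% of all genes were apart and higher in stress mice, 8.45% apart and lower). Cluster 16 held 15.7, 9.78 and 12.9% of the ECs of control mice and 15.4, 8.71 and 5.47% of those of stress mice, with overlap. Other clusters made up different shares of the ECs of each group. Cluster 15 held 1.73 to 5.35% in control and 11.3 to 23.1% in stress mice, and cluster 8 held 28.4 to 30.2% and 18.04 to 25.3%. Endothelial markers summed to 3560.2 to 4351 CPM in the ECs of control and 4433 to 5320.1 in those of stress mice. The part of these differences in the EC values was not tested. A test of whether the stress difference itself differed between tumor cells and ECs called 0 of 51 genes (edgeR, 0.13% of 19199 genes were called). Of the 51 genes, 5 had an unadjusted p under 0.05 (12.2% of all), and the smallest adjusted p was 0.270. The ECs of this test included cluster 16, and it was not run without that cluster. It therefore cannot tell whether the other ECs share the difference seen in tumor cells.

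In dendritic cells 2 mitosis genes fell, where 0.513% of 10533 genes were called lower. Aurka measured 19.5, 56.3 and 44.9 CPM in control and 6.72, 17.0 and 12.2 in stress mice, without overlap (log2 -1.61, SE 0.32, edgeR adjusted p = 0.022). Ect2 measured 72.6, 85.8 and 59.1 in control and 35.3, 43.0 and 26.0 in stress mice, also without overlap (log2 -0.95, SE 0.22, edgeR adjusted p = 0.0408). Cluster 19 held 68.6 to 97.2% of the mitosis UMIs of dendritic cells, with tumor markers at 449 to 761 CPM against 27.1 to 168 in cluster 20 and 36.8% of cells called doublets. It made up 74.7, 59.5 and 74.1% of the dendritic cells of control mice and 49.6, 36.7 and 47.8% of those of stress mice. Over both clusters, dendritic markers summed to 1876 to 2460 CPM in control and 3429 to 3714 in stress mice, and T and NK markers to 0 to 32.9 and 43.5 to 88.2. The part of these differences in the falls of Aurka and Ect2 was not tested. In cluster 20 alone, tested after the data were seen, edgeR called 0 of the 24 genes that had enough counts to be tested (0.313% of all were called), 3 had an unadjusted p under 0.05 (13.4% of all genes reached it), and the medians of the log2 fold changes were 0.45 for mitosis and 0.44 for replication genes. Aurka (37 UMIs in all) and Ect2 (58 UMIs) were not among these genes, so their falls could not be tested there. Within cluster 20, T and NK markers stood at 0 to 91.6 CPM in control and 97.8 to 184 in stress mice, and B cell, hepatocyte and stellate markers, at 0 to 3.53 CPM in all mice, were also higher in every stress mouse. Over both clusters, the count of 2 became 13 when stress mouse 2 was left out (0.634% of all genes were then called lower) and 1 for control mouse 1 (0.131%). It became 0 for control mouse 2 (1.13%), control mouse 3 (0.181%), stress mouse 1 (0.172%) and stress mouse 3 (0.0719%).

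In NK/T cells most values were higher in stress mice, and none passed. edgeR called 0 of 51 genes (0.536% of 11196 genes were called higher), 13 were higher and 1 lower at an unadjusted p under 0.05 (13.1% of all genes reached it), and DESeq2 called 2 higher (0.884% of all). The median log2 fold change was 0.40 for replication and 0.26 for mitosis genes. Mki67 measured 20.4, 70.4 and 54.4 CPM in control and 75.4, 134 and 138 in stress mice, without overlap (log2 1.17, SE 0.29, edgeR adjusted p = 0.092). Nusap1 measured 12.3, 43.2 and 45.2 in control and 50.8, 67.0 and 75.1 in stress mice (log2 0.87, edgeR adjusted p = 0.198), while Aurka gave -0.89 (0.332). Tumor markers stood at 234 to 339 CPM in the NK/T cells of control and 101 to 297 in those of stress mice, and dendritic markers at 32.4 to 42.8 and 110 to 178, without overlap. Their part in these values was not tested. The share of NK/T cells with at least 3 mitosis UMIs was 8.7, 13.2 and 15.1% in control and 14.6, 27.2 and 19.2% in stress mice, overlapping at stress mouse 1. Control mouse 1, the lowest, had 93 NK/T cells, which gives its share an exact 95% interval of 3.83 to 16.4%.

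In monocytes, edgeR again called 0 of 51 genes (0.122% of 12251 genes were called), with 7 at an unadjusted p under 0.05 (12% of all genes reached it), and DESeq2 called 1 lower (0.596%). Pcna measured 65.9, 83.8 and 76.2 CPM in control and 131, 101 and 119 in stress mice, without overlap (log2 0.68, edgeR adjusted p = 0.210), and Aurka 13.6, 16.01 and 8.16 against 6.596, 6.93 and 5.55 (log2 -0.94, edgeR adjusted p = 0.270). Mitosis UMIs per replication UMI were 1.43 to 1.57 in control and 1.004 to 1.115 in stress mice, and this ratio overlapped between groups once called doublets were left out. Markers of other cell types differed between groups within the monocytes: neutrophil markers stood at 486 to 599 CPM in control and 87.2 to 331 in stress mice, T and NK markers at 1.20 to 33.6 and 36.6 to 71.7, hepatocyte markers at 0 to 1.48 and 5.56 to 7.07, and stellate markers at 1.20 to 1.97 and 2.20 to 16.8. Their part was not tested. In inflammatory myeloid cells, B cells and M-MDSCs, edgeR called 0 of the 40, 32 and 51 genes tested, beside 0, 0.483 and 0.561% of all genes, with 1, 6 and 5 at an unadjusted p under 0.05 (3.96, 11.1 and 9.56% of all genes), and DESeq2 called 0 in each. Neutrophils and HSCs had fewer than 10 cells in a mouse and were not tested.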

How the data were processed

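For each of the 6 libraries the authors deposited unnormalized UMI counts, and with them a table giving the mouse, cluster and cell type of each annotated cell. The submitters' notes name Cell Ranger, Seurat and mm10, and the methods of the study state that cells with few genes or a high mitochondrial share and Scrublet doublets were removed. Cell Ranger 9.0.0 stands in the headers of the control libraries and 7.1.0 in those of the stress libraries. The gene annotation used for counting is not given in the sources used here. The 51 genes and the other lists, markers included, were chosen with earlier results of these data known.

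These counts were added up within each mouse for every cell type or cluster. All genes left by filterByExpr entered the quasi-likelihood test of edgeR 4.0.16 (R 4.3.3) after TMM scaling, and p-values were adjusted by Benjamini and Hochberg, with a threshold of 0.05. A cell type needed 10 cells in every mouse to be tested. The standard error of a log2 fold change is its size over the square root of F. Each sample is a mouse with its own library, and p-values measure the spread between 3 mice a group. Levels are CPM, per 1000000 UMIs of the same cells, without the TMM scaling. Whether groups overlap was also read without that scaling, so it can differ from what the log2 fold changes give. Shares of cells used 1 random draw of 1000 UMIs per cell, with exact (Clopper-Pearson) 95% intervals that cover counting error only. Doublets were called per library with Scrublet in scanpy 1.11.5 and kept, apart from an alternative. Tests were run on simulated counts with known changes before use.

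All 51 genes could be named. Full statistics were given in tumor cells to Mcm2, Pcna, Rrm2, Top2a, Mki67 and Cdk1 and, per gene group, to the 6 called genes of largest change whose mice did not overlap, in other cell types to at most 5 that passed, and of the other cell cycle genes to Cdkn1a, Ccnd1, E2f1, Mybl2, Foxm1 and at most 4 per direction. Values of further genes are given without that rule and were picked with values seen. Alternatives were DESeq2 1.42.0, RLE scaling, leaving low counts unfiltered, the replicate number as a block, leaving out each mouse, thinned cells, single clusters, no called doublets, cell means and other share thresholds. Cluster 14, ECs without cluster 16, dendritic cluster 20 and mitosis genes without Cks2 were added after the data were seen. Whether same-numbered mice deviate together was checked by the correlations of their deviations, 0.50, 0.39 and -0.13 in tumor cells and 0.57, 0.43 and 0.016 in ECs. Since the third pair did not deviate together in either, the numbers were not taken as pairs. Promoters came from RefSeq (GRCm38.p6).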

Additional observations from a re-analysis of the deposited data

How the results depend on the processing

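In tumor cells, 19 mitosis genes fell in the main test, with RLE normalization (9.14% of all genes called lower) and with no filter (6.26%), the same 19 among 24 with DESeq2 (13.3%). Leaving out a mouse gave 2 to 20. The count was 3 with cells thinned to 5000 UMIs, 12 in cluster 1, 11 without clusters 1 and 4 (6.9% of all genes were then called lower) and 8 in cluster 14. Replication genes called numbered 0 to 2 when a mouse was left out (6.14 to 29.9% of all genes called either way), 3 in cluster 1 (14.6%), 4 in cluster 4 (14%) and 1 in cluster 14 (6.71%). With the replicate block, 27 mitosis genes fell and 10 replication genes passed (2 higher, 8 lower), beside 13.1% of all genes lower and 13.9% higher. Same-numbered mice 1 and 2 correlated best with each other and mice 3 did not, which is a hint from the data only.

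In other cell types, each count stands beside the share of all genes called either way. In ECs, DESeq2 called 4 (2.99%) and the block 2 (0.93%). In monocytes, no filter called 1 (0.933%), DESeq2 1 (1.47%) and the block 2 (1.67%). In NK/T cells, no filter called 7 (2.21%), with the median log2 fold change of all genes at 0.12, DESeq2 2 (1.52%), the block 4 (2.05%), and leaving out a mouse 0 to 1 (0.317 to 1.19%). In dendritic cells, no filter called 10 (3.79%), the block 9 (6.28%), leaving out a mouse 0 to 13 (0.668 to 3.66%) and cluster 20 alone 0 (0.313%). No filter called 3 in B cells (1.73%) and 3 in M-MDSCs (1.65%). The log2 difference of summed mitosis levels was -0.19 as a mean over cells in ECs (-0.66 otherwise) and 0.22 without doublets in monocytes (-0.36 otherwise). That of replication levels was 0.0070 as a mean over cells in dendritic cells (-0.29 otherwise) and 0.013 without doublets in B cells (-0.52 otherwise). The causes were not tested.

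The share of cells with mitosis UMIs depends on the threshold. At 1 UMI or more in thinned cells it was 66.5% in tumor cells, 19.4% in ECs, 37.9% in inflammatory myeloid cells, 26.0% in monocytes, 50.5% in NK/T cells, 37.5% in dendritic cells, 28.8% in B cells, 69.8% in M-MDSCs, 39.6% in neutrophils and 22.3% in HSCs. At 3 or more without thinning it was 96.2, 13.2, 13.3, 22.7, 50.6, 31.9, 26.1, 83.9, 37.9 and 35.1% in the same order. Without Cks2 it was 0.798% in inflammatory myeloid cells and 1.40% in monocytes.

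Among single genes in tumor cells, log2 fold changes turned sign under an alternative for 12 genes, none past the threshold where they did. With a mouse left out, values ran from -0.17 to 0.20 for Mcm4, -0.38 to 0.10 for Mcm5, -0.12 to 0.087 for Mcm6, -0.46 to 0.14 for Cdc6, -0.42 to 0.078 for Ccne1 and -0.34 to 0.10 for Spc24. In cluster 1 they were 0.098 for Mcm5, 0.013 for Cdc6, 0.034 for Pclaf and 0.12 for Spc24. In cluster 4 they were 0.015 for Mcm2, 0.28 for Mcm5, 0.18 for Cdc6, 0.079 for Pclaf, 0.12 for Spc24 and 0.067 for Mybl2. In cluster 14 they were 0.037 for Mcm5, 0.11 for Cdc6, 0.089 for Pclaf, 0.047 for Tpx2, 0.059 for Spc24 and 0.045 for Cdkn1a. Without clusters 1 and 4 they were -0.15 for Mcm4, -0.13 for Mcm6 and -0.048 for Tyms. Thinned cells gave 0.066 for Mcm5, and no filter -0.011 for Mcm6. Of 464 values of mitosis genes under the alternatives, 109 kept the direction and lost the call. Only the 19 genes called in the main test could lose it, and the 464 also hold values of the genes not called. Depth limits the rare cell types, where 3 of 1000 UMIs is a coarse measure, and the number of mice limits every test.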

Other observations

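The 175 cells labelled neutrophils, of which control mouse 1 had 4, could not be tested but held division transcripts beside their own markers. Neutrophil markers (S100a8, S100a9 and 2 others) summed to 79180.3 to 223858 CPM, while tumor markers lay at 11.9 to 284 and T and NK markers at 0 to 135 in control and 121 to 525 in stress mice. Monocyte and macrophage markers lay at 2294 to 6744 CPM, against 4688 to 6747 in monocytes, but in the neutrophils nearly all of this was Lyz2 (2272 to 6725 CPM). Adgre1, Csf1r, C1qa and C1qb each stayed at or below 23.8 CPM in every mouse. Of these cells, 6.29% were called doublets (12.3% in stress mouse 3). Mean levels over the mice were 108 CPM for Mki67 (0 to 253), 69.0 for Kif11 (10.9 to 107) and 59.5 for Nusap1 (0 to 87.3). In tumor cells they were 44.0, 21.5 and 13.2. Anln averaged 8.3 (0 to 20.4) in neutrophils, against 117 in tumor cells. At 1000 UMIs per cell, 13.7% of the neutrophils (exact 95% interval 8.99 to 19.7) held at least 3 mitosis UMIs. Cks2, counted in this share, had the highest mean of the mitosis genes in these cells, at 312 CPM.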
